A study of Mus musculus with 2 samples.

Results

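The genes described here are 49 genes of the cell cycle and DNA replication, chosen by name: 28 that act in G2 and mitosis, 18 that act in S phase and 3 broader proliferation genes (Stmn1, Hmgb2 and H2afz). All 49 were among the 15169 genes of the deposited table, and they were followed across every cell type of the deposited annotation. The samples are droplet single-cell RNA libraries from kidneys of wild-type C57BL/6 mice of 9 weeks. The IRI library (5170 cells) came from a kidney after unilateral ischaemia-reperfusion injury, in which blood flow is stopped and restored, in an animal whose opposite kidney was removed. The control library (6589 cells) came from a normal kidney. The labels give no time after injury and name no nephrectomy for the control. What the ischaemia did and what the nephrectomy did cannot be told apart. Each group is 1 library, so the spread over animals is unknown and no statistical test between groups was made. The values describe these 2 libraries, and each interval is an exact 95% interval for counting error.

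A dividing cell first copies its DNA. In S phase the Mcm2 to Mcm7 helicase opens the double strand, Pcna clamps the polymerases to it, Lig1 and Fen1 finish the lagging strand, and Tyms, Tk1, Dut, Rrm1 and Rrm2 supply the nucleotides. In G2 and mitosis the kinase Cdk1 with its cyclins condenses and moves the chromosomes, and Ube2c and Cdc20 then mark the cyclins for destruction so that the cell can split. Kidney tubule cells and tissue macrophages divide rarely in a healthy adult kidney and divide after acute injury, while mature neutrophils no longer divide.

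The promoters of the 2 classes differ in short motifs that are textbook features of cell cycle genes. The RefSeq table of promoters (GRCm38.p6) held a window from 250 bases before to 50 after a gene's start for 41 of the 49 members, H2afz by a synonym. On either strand of such a window, TTTGAA, the cell cycle homology region (CHR), was found in 18 of 23 mitotic members (78.3%) and 2 of 16 S phase members (12.5%), against 20.2% of all 27025 genes. An E2F-type site (spelled TTCCCGC or with the core changed TTCGCGC, or in the further forms TTGCCGC and with the core changed TTGGCGC) was found in 3 of 23 mitotic (13%) and 10 of 16 S phase members (62.5%), against 10.9% of all genes. The box with the letters CCAAT was found in 21 of 23 mitotic (91.3%) and 10 of 16 S phase members (62.5%), against 41.1%. A match of letters is a description and not a bound site, and the E2F-type letters can overlap each other, as they do at 2 places in Mcm6. The 150 bases before the start are printed 5′ to 3′ along the gene for 4 members of each class whose windows hold these motifs, with the letters of the 3 motifs on either strand in capitals. They are Top2a at chr11:99024190-99024339 (minus strand), Ube2c at chr2:164769779-164769928 (plus strand), Cdk1 at chr10:69352913-69353062 (minus strand) and Cdc20 at chr4:118437344-118437493 (minus strand) for mitosis. For S phase they are Mcm5 at chr8:75109359-75109508 (plus strand), Mcm6 at chr1:128359706-128359855 (minus strand), Rrm1 at chr7:102441545-102441694 (plus strand) and Hells at chr19:38930840-38930989 (plus strand). Top2a, Ube2c and Cdc20 show CHR and CCAAT letters without an E2F-type site, Cdk1 shows all 3, and the 4 S phase members show E2F-type letters without a CHR.
Top2a: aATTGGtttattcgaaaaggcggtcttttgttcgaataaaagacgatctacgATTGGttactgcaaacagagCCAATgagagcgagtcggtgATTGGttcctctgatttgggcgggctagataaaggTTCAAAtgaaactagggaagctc
Ube2c: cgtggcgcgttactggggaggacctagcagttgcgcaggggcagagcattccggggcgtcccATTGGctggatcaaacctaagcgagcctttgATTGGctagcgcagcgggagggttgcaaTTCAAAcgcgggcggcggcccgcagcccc
Cdk1: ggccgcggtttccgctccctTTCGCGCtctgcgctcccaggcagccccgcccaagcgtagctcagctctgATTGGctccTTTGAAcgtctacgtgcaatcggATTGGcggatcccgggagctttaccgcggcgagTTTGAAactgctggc
Cdc20: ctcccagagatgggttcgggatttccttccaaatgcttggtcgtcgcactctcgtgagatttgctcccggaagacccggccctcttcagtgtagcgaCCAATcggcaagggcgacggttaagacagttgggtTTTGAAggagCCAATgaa
Mcm5: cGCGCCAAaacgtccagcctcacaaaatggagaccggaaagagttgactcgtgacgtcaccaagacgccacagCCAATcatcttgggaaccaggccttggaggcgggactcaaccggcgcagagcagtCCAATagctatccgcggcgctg
Mcm6: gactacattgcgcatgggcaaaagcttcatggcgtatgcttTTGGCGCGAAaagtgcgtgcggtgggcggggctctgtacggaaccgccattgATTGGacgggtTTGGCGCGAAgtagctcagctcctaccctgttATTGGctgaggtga
Rrm1: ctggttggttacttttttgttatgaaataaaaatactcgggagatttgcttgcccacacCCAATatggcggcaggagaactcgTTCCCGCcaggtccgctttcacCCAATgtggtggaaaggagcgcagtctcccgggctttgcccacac
Hells: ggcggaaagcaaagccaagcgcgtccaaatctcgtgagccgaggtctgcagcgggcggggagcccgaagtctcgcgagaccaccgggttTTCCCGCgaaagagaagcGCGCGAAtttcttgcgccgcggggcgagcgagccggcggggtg

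The libraries held 16816996 raw UMIs in IRI (median 1888.5 per cell) and 24169073 in control (median 2344). The main table holds corrected counts, whole numbers that the authors' normalization has moved to a common depth, so levels are given as mean corrected counts per cell. For 30 members (20 mitotic, 9 S phase and Stmn1) the raw UMIs were also recovered from the deposited residuals, and their rates are given as CPM, here UMIs per 1000000 raw UMIs of the same cells. Cell types come from clusters of these same cells, so a type may be set apart by the genes described here. The libraries shared 55 cell barcodes. Neutrophils, which no longer divide, are used as a reference level. The 106 IRI neutrophils (median 1451 UMIs) held 14 UMIs of the 20 mitotic members, 86.6 CPM (47.4 to 145), in 14 different cells. They held 6 UMIs of the 9 S phase members, 37.1 CPM (13.6 to 80.8). Whether these UMIs are free RNA in the droplets or the neutrophils' own RNA was not tested, so the level is no measured floor for other types. No neutrophil held UMIs of 2 mitotic members (0 of 106, which allows a share of up to 2.83%). The control held 2 neutrophils, too few for the same measure, so this level stands for the IRI library only. In control the mitotic rates of tubule types were as low as 8.33 CPM in S3, 8.37 (6.57 to 10.5) in S2 and 9.01 in the thick ascending limb.

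Over all cells the mean corrected count of 49 of 49 members was higher in IRI, against 48.6% of all genes, and none was 2-fold higher, against 0.76% of the genes that passed the filter of 10 summed counts. With 0.05 added to each mean, a gene with an IRI mean below 0.05 cannot be called higher. By UMIs the single mitotic members had ratios of 4.05 to 27.6, and the single S phase members 1.24 to 7.86. For the mitotic members the lack of a 2-fold call is thus no measure of their change. The 20 mitotic members had 3771 UMIs in IRI and 637 in control, 224 and 26.4 CPM, a ratio of 8.51 (7.82 to 9.27). The 9 S phase members had 2651 and 1773 UMIs, 158 in IRI and 73.4 in control, a ratio of 2.15 (2.02 to 2.28). In a mix of all cells, a larger share of a cell type and more RNA per cell of that type cannot be told apart, so the rest is given by type.

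**Figure D1:**
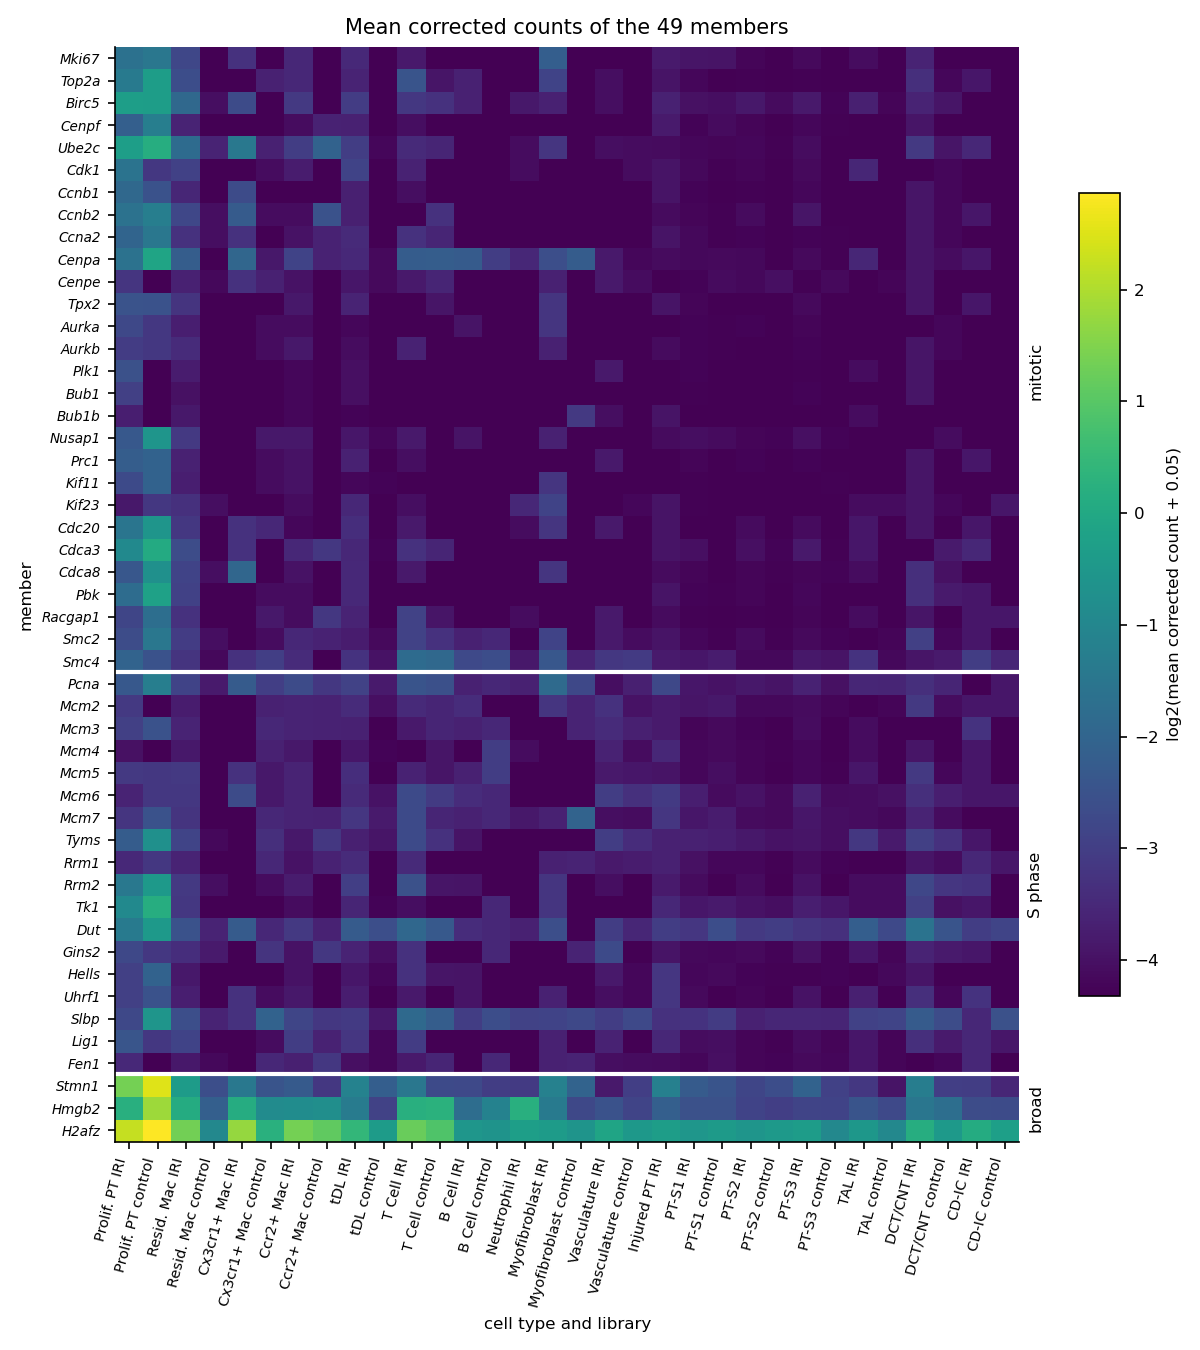
Mean corrected count of each of the 49 members (rows, grouped by role) in each cell type and library (columns, IRI left of control), as log2(mean + 0.05), with brighter cells for higher means. Prolif. PT is bright in both libraries, and the IRI resident macrophages (Resid. Mac) have a summed mitotic mean of 2.02 against 0.106 in control.

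Types named after division stood highest. By the summed mean of the 28 mitotic members the order was Prolif. PT (6.14 in 155 IRI cells, 10 in 16 control cells), then IRI resident macrophages (2.02), IRI Cx3cr1+ macrophages (1.42 in 19 cells), IRI myofibroblasts (1.14 in 35 cells) and IRI T cells (1.11). In the myofibroblasts 1 cell held 28 of the 43 mitotic UMIs, and without it and the highest control cell the rates were 163 and 31.9 CPM. IRI myofibroblasts and T cells are neighbours within counting error, since their UMI rates of 421 (305 to 568) and 401 (341 to 469) CPM overlap. Control thick ascending limb (TAL, 0.0247), control S2 proximal tubule (0.0384) and control S3 (0.0423) stood lowest of the annotated types.

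**Figure D2:**
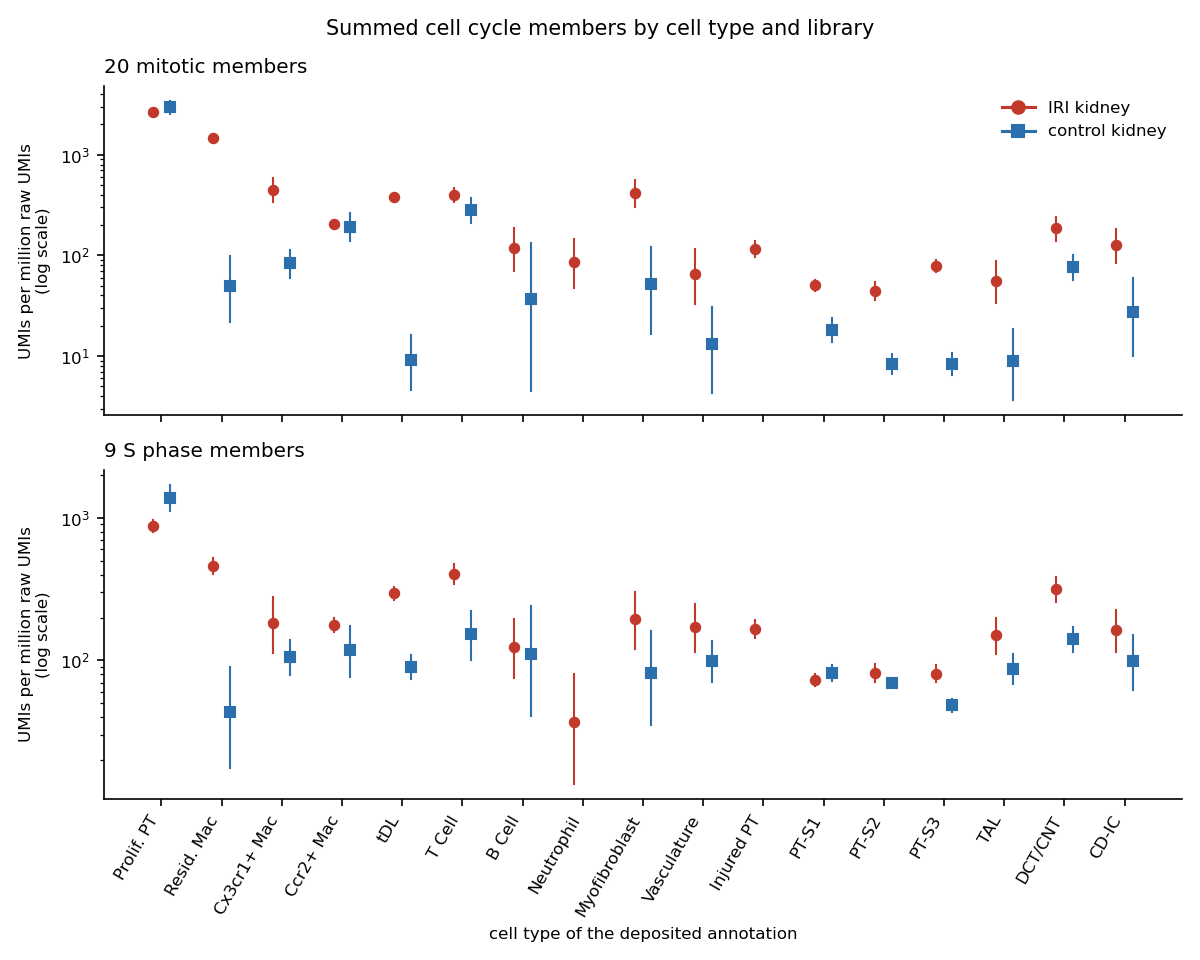
UMIs per 1000000 raw UMIs (CPM) (log scale) of the 20 mitotic members (upper plot) and the 9 S phase members (lower plot) by cell type, IRI (circles, left) and control (squares, right), with exact 95% counting intervals. Resident macrophages lie at 1462 in IRI and 49.9 in control for mitotic members, while Ccr2+ macrophages lie at 203 and 194.

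Resident macrophages, the phagocytes that live in the tissue, had the highest mitotic ratio between libraries of the 3 macrophage types. The name is the annotation's, and the 2 libraries differed in markers under it. Macrophage markers summed to 15.8 in IRI and 8.51 in control (10 of 10 above 0 in both), and proximal tubule markers to 7.35 in IRI and 21.6 in control, so that the control cells held more tubule than macrophage marker counts. In S1 to S3 tubule cells the macrophage markers summed to 0.294 in IRI and 0.0804 in control. The part of these markers in the ratios was not tested beyond the values given by marker content. All 49 members had a higher mean in the 306 IRI cells than in the 188 control cells, against 46.5% of all genes, and 30 members are listed at 0 in control. Of the 38 members with at least 10 summed counts, 26 were at least 2-fold higher in IRI (0.05 added to each mean) and none was 2-fold lower, against 6.61% and 3.27% of all genes that passed. The 26 were 15 of 22 mitotic, 8 of 13 S phase and 3 of 3 broad members, and 15 of them are listed at 0 in control. Members pass the filter mostly through their IRI counts, so these shares describe the 38 and not all 49. The median log2 ratio of the 38 was 1.16, or 1.76 with members at 0 in control set to 3 counts, against 0.16 for all genes.

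Among the genes of chromosome structure, Top2a, which untangles DNA, had 50 UMIs in IRI cells (101 CPM, 75.2 to 134) and 0 in control cells, at least 5.42-fold higher against a floor of 3 counts. Mki67, whose product coats mitotic chromosomes, had 49 and 0, at least 5.31-fold. Cenpa, the histone of the centromere, had 65 in IRI and 0 in control, at least 7.04-fold, in 32 IRI cells. These genes were thus read in IRI cells alone. The condensin genes Smc2 and Smc4 had means of 0.0719 and 0.0556 in IRI, against 0.0106 and 0.00532 in control, log2 ratios of 1.01 and 0.93.

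Cyclins and their kinase followed. Cdk1 had 30 UMIs in IRI and 0 in control, at least 3.25-fold, and Ccnb1, the cyclin of mitotic entry, 12 and 0, at least 1.30-fold. Ccnb2 had 32 in IRI and 1 in control, a ratio of 10.4 (1.74 to 423), and Ccna2, which acts from S phase into G2, 23 and 1, a ratio of 7.48 (1.21 to 308). A single control UMI leaves the upper bound of such ratios wide. Ube2c, the enzyme that tags the cyclins, had 96 UMIs in IRI and 3 in control, 195 and 18.7 CPM, a ratio of 10.4 (3.45 to 51.3). Its partner Cdc20 had 23 and 0, at least 2.49-fold.

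Spindle and division genes showed the same order of libraries. Birc5, the survivin of the chromosomal passenger complex, had 91 UMIs in IRI and 1 in control, 184 and 6.24 CPM, a ratio of 29.6 (5.18 to 1181). Its partner Cdca8 had 33 and 1, a ratio of 10.7 (1.80 to 436). The spindle genes Tpx2 (23 in IRI, 0 in control), Nusap1 (25 and 0) and Prc1 (17 and 0) were at least 2.49-, 2.71- and 1.84-fold higher. Kif23 and Racgap1, which together pinch the cell in 2, had 22 and 23 UMIs in IRI and 1 and 0 in control. Aurkb, Plk1, Bub1, Bub1b and Kif11, which have no recovered UMIs, had means of 0.0425, 0.0229, 0.0131, 0.0196 and 0.0261 in IRI and are listed at 0 in control. These IRI means lie below the 0.05 added to each mean, so none of the 5 could be called 2-fold higher.

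S phase members were higher as well, in fewer cells. Dut, which removes dUTP, had 44 UMIs in IRI and 3 in control, 89.2 and 18.7 CPM, a ratio of 4.77 (1.53 to 24.0). Pcna had 37 and 2, a ratio of 6.01 (1.55 to 51.5), and Tyms, which makes thymidylate, 32 and 1, a ratio of 10.4 (1.74 to 423). Rrm2, a subunit of ribonucleotide reductase, had 24 in IRI and 1 in control, a ratio of 7.80 (1.27 to 321). Tk1, the thymidine kinase, had 23 and 0, at least 2.49-fold, and Lig1, the replicative ligase, 29 and 0, at least 3.14-fold.
The helicase genes Mcm2, Mcm3 and Mcm5 together had 39 UMIs in IRI (79.1 CPM, 56.2 to 108) and 0 in control, and Mcm5 alone, with 21, was at least 2.28-fold higher. Mcm6 and Mcm7 had means of 0.0621 and 0.0556 in IRI and are listed at 0 in control. Slbp, which binds histone mRNA, had 0.114 in IRI and 0.0319 in control, a log2 ratio of 1.00. Gins2, a helicase partner, and Fen1, which was below the filter, had log2 ratios of 0.43 and 0.33. Mcm4, Hells, the remodeller of DNA methylation, and its partner Uhrf1 had means of 0.0196, 0.0196 and 0.0261 in IRI and are listed at 0 in control, below the filter.

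The broad members were higher in IRI and were read in some control cells. Stmn1, which destabilizes microtubules, had 250 UMIs in 86 IRI cells and 12 UMIs in 10 control cells, 507 and 74.9 CPM, a ratio of 6.77 (3.81 to 13.3). Hmgb2, a chromatin protein of dividing cells, had a mean of 1.03 in IRI and 0.176 in control (log2 2.26) and was above 0 in 100 IRI cells (32.7%) and 14 control cells (7.45%). H2afz, a histone variant, had 2.47 and 0.457 (log2 2.31), above 0 in 175 IRI cells (57.2%) and 35 control cells (18.6%).

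**Figure D3:**
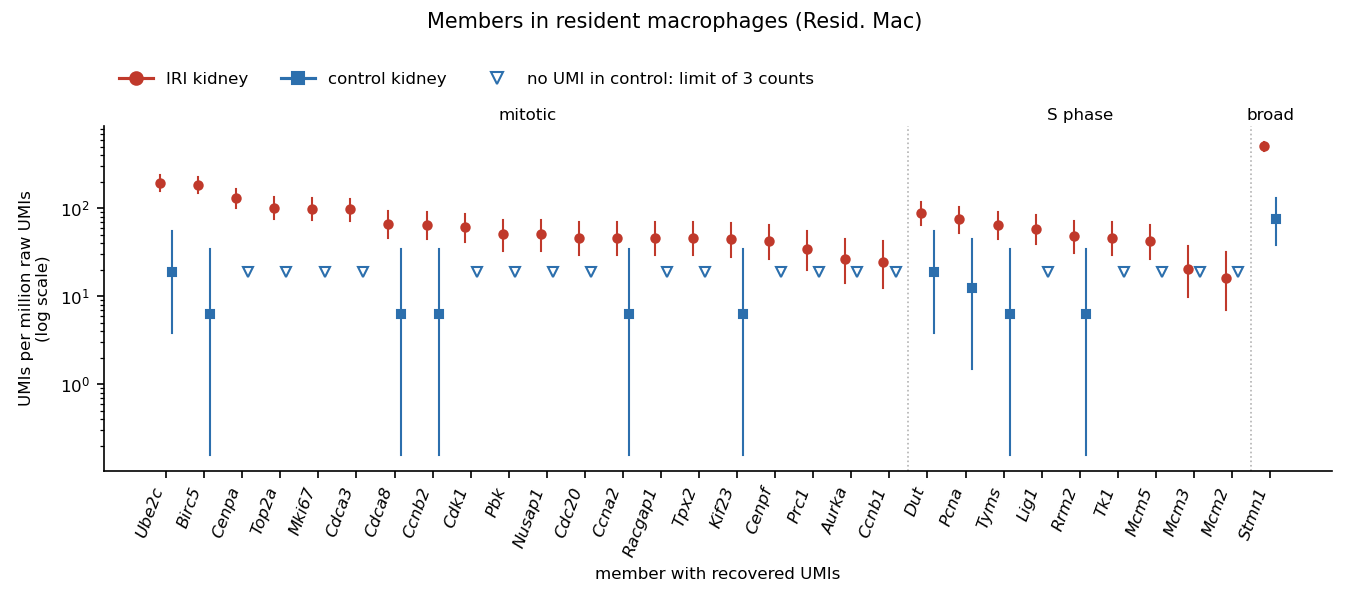
UMIs per 1000000 raw UMIs (CPM) (log scale) of the 30 members with recovered UMIs in resident macrophages, IRI (circles) left of control (squares), with exact 95% counting intervals, and open triangles at the limit of 3 counts where control has no UMI. Each circle lies above its square, Birc5 at 184 and 6.24, and 14 of 20 mitotic members have no control UMI.

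Summed, the 20 mitotic members had 721 UMIs in IRI and 8 in control resident macrophages, 1462 (1357 to 1572) and 49.9 (21.5 to 98.3) CPM, a ratio of 29.3 (14.8 to 68.1). The 9 S phase members had 228 and 7, 462 (404 to 526) and 43.7 (17.6 to 90.0) CPM, a ratio of 10.6 (5.06 to 26.6). The 2 IRI rates lie above those of the IRI neutrophils, 86.6 and 37.1. The control rates cannot be set against neutrophils of their own library. UMIs of at least 2 mitotic members were held by 68 of 306 IRI cells (22.2%, 17.7 to 27.3) and 2 of 188 control cells (1.06%, 0.129 to 3.79). At least 5 mitotic members were held by 26 IRI cells. In control 0 of 188 did, a limit of 1.60%, and the highest IRI cell held 19 of the 20. The UMIs were unevenly spread: 9 cells held 50% of the 721, and the highest cell held 92.
The same values were taken in the cells with more macrophage than proximal tubule marker counts, 169 in IRI and 30 in control. Their mitotic members had 638 and 3 UMIs, 1772 (1637 to 1915) and 84.4 (17.4 to 247) CPM, a ratio of 21.0 (7.15 to 102). Their S phase members had 202 and 4 UMIs, a ratio of 4.99 (1.92 to 18.5), and at least 2 mitotic members were held by 51 of 169 IRI cells (30.2%) and 1 of 30 control cells (3.33%, 0.0844 to 17.2). In the other cells, 137 in IRI and 158 in control, the mitotic members had 83 and 5 UMIs, a ratio of 15.5 (6.4 to 49.1). The higher IRI rate thus appeared in both sets of cells, on few control UMIs.

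Depth differed between these cells, with medians of 799.5 raw UMIs in IRI and 599.5 in control. Thinned to 500 UMIs per cell, which left out 37 IRI and 51 control cells, the expected share with at least 2 mitotic UMIs was 12.3% in IRI and 0.817% in control, and with at least 2 S phase UMIs 3.02% and 0.314%. Among cells below 1000 UMIs, 23 of 192 IRI and 2 of 169 control cells held at least 2 mitotic members, at summed rates of 798 and 78.2 CPM. Markers of other types were also compared. The 68 IRI mitotic cells had a summed macrophage marker mean of 25.4 (10 of 10 markers above 0), against 13.1 in the other 238 IRI cells. Proximal tubule markers summed to 4.37 in the mitotic cells and 8.20 in the other IRI cells. The 5 NK and 6 stromal markers were at 0 in the mitotic cells and the 6 T cell markers in the table summed to 0.0147. The part of these markers in the shares was not tested.

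Of the other macrophage types, the Ccr2+ type had mitotic rates with overlapping intervals and the Cx3cr1+ type a higher one in IRI. The Ccr2+ type, named for the monocyte receptor, had 334 mitotic UMIs in 217 IRI cells and 41 in 32 control cells, 203 (182 to 226) and 194 (139 to 263) CPM, a ratio of 1.05 (0.756 to 1.49). Its S phase members had 293 and 25 UMIs, 178 and 118 CPM, a ratio of 1.51 (1.00 to 2.37). Of 11 members that passed the filter, 1 was 2-fold higher, Birc5 with a mean of 0.0645 in IRI and listed at 0 in control, against 12.5% of all genes. Ube2c went the other way, 40 UMIs in IRI and 12 in control, 24.3 and 56.7 CPM, a ratio of 0.429 (0.221 to 0.898). The control cells of this name stand apart: C1qa and C1qb are listed at 0, dendritic markers summed to 3.34 in control against 0.493 in IRI, and 1 control cell held 20 of the 41 mitotic UMIs and 1 held 13 of the 25 S phase UMIs. Without the highest cell of each library the mitotic UMIs were 285 and 21, a ratio of 1.65 (1.06 to 2.70), and the S phase UMIs 254 and 12, a ratio of 2.62 (1.47 to 5.13). The part of these differences in the ratio was not tested.
In the Cx3cr1+ type, below the limit of 20 cells in IRI, the mitotic members had 52 UMIs in 19 IRI cells and 40 in 106 control cells, 450 (336 to 590) and 83.1 (59.4 to 113) CPM, a ratio of 5.42 (3.52 to 8.40). UMIs of at least 2 mitotic members were held by 8 of 19 IRI cells (42.1%, 20.3 to 66.5) and 4 of 106 control cells (3.77%, 1.04 to 9.38), a ratio of shares of 11.2 (2.99 to 50.6). In control 1 cell, with 11 mitotic members, held 20 of the 40 UMIs, and in IRI 1 cell held 18 of the 52. Without these cells the ratio of rates was 7.68 (4.30 to 14.1). The S phase members had 21 and 51 UMIs, 182 and 106 CPM, a ratio of 1.72 (0.980 to 2.90). Over the 3 macrophage types together, 10 of 45 members that passed were 2-fold higher, against 2.46% of all genes. They were Mki67, Top2a, Birc5, Ube2c, Cenpa, Cdca3, the S phase gene Lig1 and all 3 broad members. This pool held 306 resident, 217 Ccr2+ and 19 Cx3cr1+ cells in IRI, and 188, 32 and 106 in control. Its calls thus mix the shares of the types with levels within a type, and the 2 cannot be told apart.

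T cells had S phase members at a higher rate in IRI, with the UMIs in few cells, while 1 control cell held most of the mitotic UMIs of its library. Of 14 members that passed, 3 were 2-fold higher, against 2.88% of all genes. Top2a had 24 UMIs in 9 of 97 IRI cells and 1 in 59 control cells, a ratio of 10.9 (1.77 to 446). Rrm2 had 29 UMIs in 5 IRI cells and 1 in control, a ratio of 13.1 (2.17 to 536), and Stmn1 79 UMIs in 11 IRI cells and 8 in 5 control cells, a ratio of 4.47 (2.16 to 10.7). Few cells carried each of these sums. The 9 S phase members had 158 UMIs in IRI and 27 in control, 406 (345 to 475) and 153 (101 to 223) CPM, a ratio of 2.65 (1.75 to 4.14). In IRI 3 cells held 50% of the 158, and 1 held 35. Without the highest cell of each library the ratio was 2.32 (1.49 to 3.76). Any S phase UMI was held by 40.2% of IRI and 37.3% of control cells, a ratio of shares of 1.08 (0.624 to 1.91). At least 2 S phase members were held by 16 IRI cells (16.5%) and 3 control cells (5.08%), a ratio of 3.24 (0.929 to 17.4).
The 20 mitotic members had 156 and 50 UMIs, 401 and 284 CPM, a ratio of 1.41 (1.02 to 1.98). However, 1 control cell with 10 mitotic members held 44 of the 50, and 1 IRI cell held 42 of the 156. Without these 2 cells 114 UMIs were left in IRI and 6 in control, a ratio of 8.36 (3.72 to 23.2). By UMIs, cells with at least 2 of the 20 mitotic members numbered 12 in IRI (12.4%, 6.56 to 20.6) and 1 in control (1.69%, 0.0429 to 9.09). By corrected counts, cells with at least 2 of the 28 numbered 15 in IRI (15.5%, 8.92 to 24.2) and 5 in control (8.47%, 2.81 to 18.7), a ratio of shares of 1.82 (0.630 to 6.42). Cells of this name held T cell markers (summed 4.63 in IRI, 4.80 in control) and NK markers (5.89 and 9.27), so the type is not of T cells alone by its markers.

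B cells showed little of the module. None of 4 members that passed was 2-fold higher in the 69 IRI over the 27 control cells, against 9.1% of all genes. The mitotic members had 18 UMIs in IRI and 2 in control, 118 (69.8 to 186) and 36.8 (4.46 to 133) CPM, and the S phase members 19 and 6, 124 and 110 CPM. The mitotic rate in IRI B cells does not lie above that of IRI neutrophils beyond counting error. Cenpa accounted for 11 of the mitotic UMIs in IRI and 2 in control.

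In the proximal tubule segments S1 to S3, which reabsorb most of the filtrate, the members were scarce in both libraries. Of 49 members 44 had a higher mean in the 3261 IRI cells than in the 4827 control cells, against 46.1% of all genes, and 0 of 38 that passed were 2-fold higher, against 0.41%. With 0.05 added, a call needs an IRI mean of at least 0.05. The 28 mitotic members together summed to 0.132 in IRI and 0.0466 in control. For them the 0 is thus largely set by the added constant and is no measure of their change. The summed mitotic members had 562 UMIs in IRI and 192 in control, 56.4 (51.8 to 61.2) and 9.88 (8.53 to 11.4) CPM, a ratio of 5.71 (4.83 to 6.76), with each of the 20 at a higher rate in IRI. Ccnb2 had 52 UMIs in IRI and 6 in control, a ratio of 16.9 (7.26 to 48.1), Cdc20 26 and 3, a ratio of 16.9 (5.18 to 87.2), and Cdca3, a trigger of mitotic entry, 74 and 22, a ratio of 6.56 (4.03 to 11.1).
The IRI rate of 56.4 CPM is no higher than the 86.6 of IRI neutrophils, and thinned to 500 UMIs 2.60% of IRI and 0.528% of control tubule cells, but 4.90% of neutrophils, would hold a mitotic UMI. The part of free RNA in the difference between the libraries was not tested. At least 5 mitotic members were held by 8 IRI cells (0.245%, 0.106 to 0.483) and 0 of 4827 in control, a limit of 0.0622% for a count of 0, and 7 of the 8 were in S3, where the highest held 13.

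By segment, the mitotic rate was 50.4 CPM in IRI and 18.2 in control for S1, 44.6 and 8.37 for S2, and 78.7 and 8.33 for S3, ratios of 2.77 (2.06 to 3.78), 5.33 (3.91 to 7.28) and 9.45 (7.09 to 12.7). S3 is the segment that enters the outer medulla. The intervals of S3 and S2 meet, and that of S3 does not meet that of S1. The cells of a segment lie mostly in different clusters of the annotation in the 2 libraries, so the ratios compare different clusters: of the S2 cells 1092 of 1482 in IRI were in cluster 0 and 1283 and 898 of 2785 in control in clusters 1 and 2, and of the S3 cells 727 of 790 in IRI were in cluster 3 and 742 and 455 of 1442 in control in clusters 4 and 8. Within cluster 0 of S2 the rates were 62.2 CPM in 1092 IRI cells and 17.0 in 391 control cells, a ratio of 3.66 (1.68 to 9.47). Within cluster 3 of S3 there were 195 UMIs in 727 IRI cells and 1 in 127 control cells, and within cluster 4 8 UMIs in 58 and 16 in 742, a ratio of 11.2 (4.13 to 27.6). Differences between segments were not tested. The 69 IRI cells with at least 2 mitotic members had injured tubule markers summing to 14.2, against 5.61 in the other 3192 IRI cells, and macrophage markers summing to 0.203 and 0.296. They were also deeper, with a median of 8034 raw UMIs against 1765.5.

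S phase members in these segments differed little. They had 767 UMIs in IRI and 1226 in control, 76.9 (71.6 to 82.6) and 63.1 (59.6 to 66.7) CPM, a ratio of 1.22 (1.11 to 1.34). Dut, which also serves non-dividing cells, made up 325 of the IRI and 672 of the control UMIs and had a ratio of 0.943 (0.823 to 1.08). Without Dut the ratio was 1.56 (1.37 to 1.77). Rrm2 had 40 UMIs in IRI and 11 in control, a ratio of 7.09 (3.57 to 15.3), and Mcm3 14 and 7, a ratio of 3.90 (1.47 to 11.4), whereas Pcna (104 and 156) and Tyms (97 and 145) had ratios of 1.30 (1.00 to 1.68) and 1.30 (0.998 to 1.70). Stmn1 had 732 and 1077 UMIs, 73.4 and 55.4 CPM, a ratio of 1.32 (1.20 to 1.46), and in S3 270 and 285, a ratio of 2.78 (2.34 to 3.29). S phase rates in S1 were 73.1 in IRI and 82.0 in control, in S2 81.3 and 69.1, and in S3 80.6 and 48.5, the last a ratio of 1.66 (1.40 to 1.98).

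Proliferating proximal tubule cells (Prolif. PT) are set apart by genes such as these, so their high level is no finding. Between libraries they differed little in mitotic members: 1159 UMIs in 155 IRI cells and 186 in 16 control cells, 2633 (2483 to 2789) and 2969 (2557 to 3427) CPM, a ratio of 0.887 (0.759 to 1.04). The S phase members were lower in IRI, with 386 and 87 UMIs, 877 and 1389 CPM, a ratio of 0.631 (0.499 to 0.806). Tyms had 36 UMIs in IRI and 14 in control, a ratio of 0.366 (0.193 to 0.735), and Tk1 97 and 24, a ratio of 0.575 (0.365 to 0.941). Cdk1 went the other way, with 61 and 1, a ratio of 8.68 (1.5 to 348). The control arm of 16 cells is below the limit of 20.

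Cells named tDL, by its usual reading the thin descending limb, lie in 2 clusters that hardly share a library, and cluster 9 (420 IRI, 36 control cells) carried the members. Its injured tubule markers summed to 40.9 in IRI and 4.61 in control, and its loop markers to 3.33 and 0.833. Sums of different gene lists are not on the same scale, so they do not decide the name. The cells are called by their cluster. Mitotic members had 463 UMIs in IRI and 2 in control, 390 (355 to 427) and 27.2 (3.30 to 98.4) CPM, a ratio of 14.3 (3.94 to 119). S phase members had 358 and 7, 302 and 95.3 CPM, a ratio of 3.16 (1.52 to 7.93). Cdk1 had 55 UMIs and Rrm2 41 in IRI, against 0 each in control, where 3 counts would be nearly as high a rate (at least 1.13-fold for Cdk1). Of 39 members that passed, 8 were 2-fold higher, against 9.86% of all genes, and 28 of the 39 are listed at 0 in the 36 control cells. Cells with at least 2 mitotic members were 55 of 420 in IRI (13.1%, 10.0 to 16.7) and 0 of 36 in control, a limit of 8.33%.

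The 135 injured proximal tubule cells, all from IRI, had mitotic members at 116 CPM (96.1 to 138) and S phase members at 166 (143 to 192), the mitotic interval meeting that of the IRI neutrophils (47.4 to 145). UMIs of at least 2 mitotic members were held by 19 of the 135 (14.1%, 8.69 to 21.1), against 0 of 106 IRI neutrophils, and 3 cells held at least 5, with a highest of 13. Depth differed widely, with medians of 8267 raw UMIs in the injured cells and 1451 in the neutrophils, so these shares are not on equal terms. Thinned to 500 UMIs, 4.67% of the injured cells and 4.90% of the neutrophils would hold a mitotic UMI. At least 2 mitotic UMIs would be held by 0.537% and 0%. Among other types, the mitotic rates were 55.8 in IRI and 9.01 in control TAL, 186 and 77.0 in distal convoluted and connecting tubule (DCT/CNT), 127 and 27.1 in intercalated cells (CD-IC), 421 and 51.4 in myofibroblasts and 65.2 and 13.1 in vasculature. Single cells weighed on these rates. The highest myofibroblast, described above, held 11 of the 20 mitotic members. In CD-IC 1 IRI cell held 17 of 28, and without the highest cell of each library the ratio was 2.79 (0.826 to 12.0). In DCT/CNT the highest cell held 19 of 56 UMIs in IRI and 25 of 52 in control. Few of their members passed the filter. The 2-fold calls were 1 of 8 in DCT/CNT (Stmn1, 0.365 in IRI and 0.0763 in control) against 2.22%, 1 of 4 in myofibroblasts (Hmgb2, 0.343 and 0.0968) against 6.22%, 1 of 10 in vasculature (Gins2, 0.104 and listed at 0) against 1.56%, 0 of 7 in TAL against 1.05% and 0 of 2 in CD-IC against 5.88%.

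The balance of S phase to mitotic UMIs differed between types. In IRI resident macrophages there were 0.316 S phase UMIs per mitotic UMI (0.271 to 0.368), close to the 0.333 (0.296 to 0.374) of IRI Prolif. PT. It was 0.773 (0.672 to 0.890) in IRI cluster 9, 0.877 (0.747 to 1.03) in IRI Ccr2+ macrophages and 1.01 (0.807 to 1.27) in IRI T cells. In types with few UMIs it was 0.404 (0.231 to 0.682) in IRI Cx3cr1+ macrophages, 0.465 (0.259 to 0.808) in IRI myofibroblasts and 0.429 (0.135 to 1.19) in IRI neutrophils, intervals that meet that of resident macrophages. The interval of resident macrophages does not meet those of cluster 9, Ccr2+ macrophages or T cells. However, these intervals treat each UMI as independent, while the UMIs lay in few cells. In IRI, 9 of 306 resident macrophages held 50% of the mitotic UMIs, and 9 held 50% of the S phase UMIs. In IRI T cells 3 of 97 cells did so for each class. The intervals are thus too narrow to separate types, and differences between types were not tested. In the proximal tubule segments the balance was 1.36 (1.22 to 1.52) in IRI and 6.39 (5.48 to 7.47) in control, and the same order of libraries held in S1 (1.45 and 4.51), S2 (1.83 and 8.26) and S3 (1.02 and 5.83). Dut, which also serves non-dividing cells, made up a large part of these S phase UMIs. Without Dut, 442 S phase UMIs stood beside 562 mitotic UMIs in IRI segments, and 554 beside 192 in control. In T cells it was 0.54 (0.325 to 0.879) in control, where 1 cell held most mitotic UMIs. The part of free RNA in the balance was not tested.

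**Figure D4:**
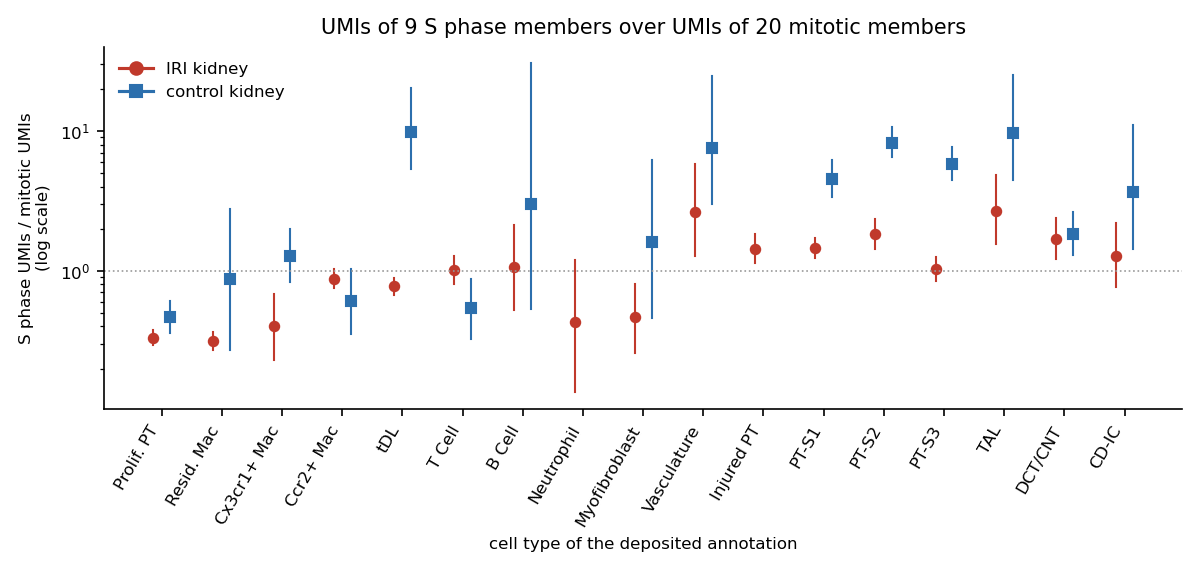
UMIs of the 9 S phase members divided by UMIs of the 20 mitotic members (log scale) by cell type, IRI (circles, left) and control (squares, right), with exact 95% counting intervals and a dotted line at 1. IRI resident macrophages lie at 0.316 and IRI Prolif. PT at 0.333, and the control proximal tubule segments lie between 4.51 and 8.26. The S phase members include Dut, which also serves non-dividing cells.

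Within cells the classes overlapped in part. Of the 68 IRI resident macrophages with at least 2 mitotic members, 19 (27.9%, 17.7 to 40.1) also held at least 2 S phase members, and these were 19 of the 30 S phase cells (63.3%, 43.9 to 80.1). In IRI Prolif. PT 53 of 99 mitotic cells (53.5%, 43.2 to 63.6) held both, in cluster 9 28 of 55 (50.9%), in T cells 5 of 12 (41.7%) and in proximal tubule segments 16 of 69 (23.2%). Depth bears on these shares: median raw UMIs of the mitotic cells were 1685.5 in IRI resident macrophages and 2855 in IRI Prolif. PT, and 3484 in cluster 9. Its part in the shares was not tested.

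S phase members were denser in mitotic cells than in the other cells of the same type and library. In IRI resident macrophages the 9 S phase members had 666 CPM in the 68 mitotic cells and 257 in the other 238, a ratio of 2.60 (1.93 to 3.53). Pcna had 117 and 32.6 CPM, Tk1 80.7 and 12.2, a ratio of 6.61 (1.96 to 34.7), and Mcm2 20.2 and 12.2. The ratio of the 9 was 6.56 in IRI T cells (1163 in 12 mitotic cells, 177 in the others), 4.51 in cluster 9 (745 and 165), 4.29 in IRI Ccr2+ macrophages (548 and 128) and 2.37 in IRI proximal tubule segments (169 and 71.6). In IRI Prolif. PT it was 0.977 (0.708 to 1.38), so there the S phase rate was as high in the 56 cells without 2 mitotic members. These 56 cells were shallow, with a median of 622 raw UMIs against 2855 in the 99 mitotic cells. Only 26 of the 56 held no mitotic UMI, so they are not a set of cells outside mitosis. The part of depth was not tested. Stmn1 differed widely in T cells, with 72 of its 79 UMIs in the 12 mitotic cells.

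**Figure D5:**
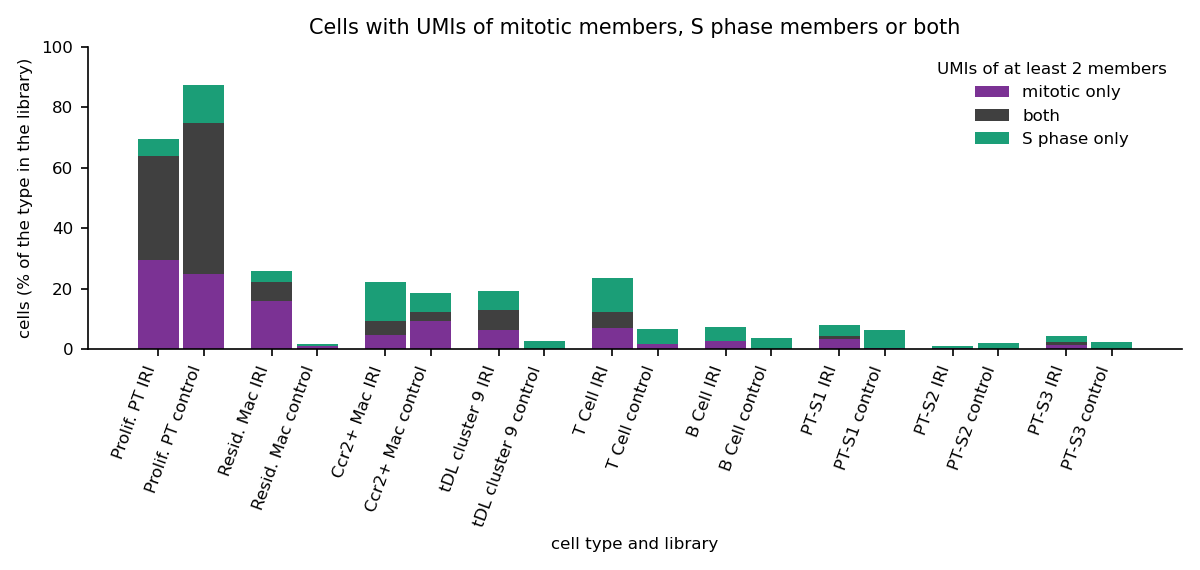
Share of cells (% of the type in the library) with UMIs of at least 2 mitotic members only, of both classes, or of at least 2 S phase members only, IRI left of control for each type. Resident macrophages hold 22.2% mitotic cells in IRI and 1.06% in control, while S2 proximal tubule has under 3% in any class.

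Other cell cycle genes were counted from 4 further lists, in resident macrophages against 6.61% of all genes called higher. Of 24 genes of G1 and cell cycle control, 7 passed in resident macrophages and 1 was 2-fold higher, Cdk4, the G1 kinase (0.167 in IRI, 0.0479 in control, log2 1.15). Of 18 arrest and quiescence genes 11 passed and 1 was higher, Cdkn1a, the p21 inhibitor (0.0915 and 0.0106, log2 1.22), of 25 other S phase genes 8 passed and 0 were called, and of 34 other mitotic genes 10 passed and 3 were higher. The 3 were Cks1b (0.193 and 0.0319, log2 1.57) and Cks2 (0.356 and 0.0957, log2 1.48), which dock onto cyclin-dependent kinases, and Knstrn of the kinetochore (0.0850, listed at 0 in control). Medians of the 4 lists were 0.42, 0.47, 0.74 and 0.75, against 0.16 for all genes and 1.16 for the members.
In proximal tubule segments no gene of the 4 lists was 2-fold higher, against 0.41% of all genes. Most of these genes had IRI means below 0.05, where the added 0.05 keeps a gene from being called higher. Of the lists 1 gene was lower, Gadd45g, a stress-induced brake on division (0.181 in IRI, 0.965 in control, log2 -2.13), against 0.762% of all genes called lower. In Ccr2+ macrophages 8 G1 genes passed, and the cyclin Ccnd2 (0.406 and 0.0938, log2 1.66) and Cdk4 (log2 1.45) were higher, against 12.5%. Ccnd1 (0.120 and 0.469, log2 -1.61) and Rb1, the retinoblastoma gene (log2 -1.09), were lower, as was Cdkn2c, a kinase inhibitor, among 12 arrest genes (log2 -1.09), against 6.51% of all genes called lower. None of the 3 other S phase and 3 other mitotic genes that passed was called.
In cluster 9 the arrest genes were called both ways, 2 of 14 higher against 9.86% and 5 lower against 7.45%. Mdm2 (0.302 and 0.0278, log2 2.18) and Ccng1 (0.171 and 0.0278, log2 1.51) were higher, each over a very low mean in the 36 control cells. Cdkn1a (log2 0.44) and Gadd45a (log2 0.18) were under 2-fold. The antiproliferative Btg2 (0.0952 and 0.694, log2 -2.36), its relative Btg1 (log2 -1.10), Gadd45g (log2 -1.20), Gadd45b and Ccng2 (log2 -1.18 each) were lower. Of the G1 genes 1 of 8 was higher, Ccnd1 (0.25 and 0.0833, log2 1.17), of the other S phase genes 2 of 11, Gmnn and Rfc2 (0.0595 and 0.0952 in IRI, listed at 0 in control), and of the other mitotic genes 3 of 11, Spc24, Cks1b (0.0690 and 0.136 in IRI, listed at 0 in control) and Cks2 (log2 1.16). In T cells 1 of 11 arrest genes was higher, Gadd45b (0.103 and 0.0169, log2 1.19), against 2.88% of all genes. So were 1 of 4 other mitotic genes, Cenpw of the centromere (0.124 and 0.0169, log2 1.38), and 1 of 5 other S phase genes, Tipin of the replication fork (log2 1.05). The 0.0169 of Gadd45b and Cenpw is a very low mean in 59 control cells. Gadd45g was lower (log2 -1.39), against 3.37%.

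Genes outside the members whose level followed them across types were named by rank alone. Over 31 type and library groups with at least 20 cells, and among 7711 genes with a mean of at least 0.1 in a group, the log2 level most like that of the summed mitotic members was that of Knstrn (Pearson r 0.836), followed by 2810417H13Rik (0.816), Cks1b (0.785), Tubb5 (0.763) and Cenpw (0.749). The next were H2afx, Anp32e, Mxd3, Mad2l1 and Cenpm (0.694). For the summed S phase members they were Ran (0.837), Banf1 (0.802), Tubb5 (0.794), Snrpe and Snrpd1, and the 2 sums had an r of 0.778 with each other. The groups share 2 libraries and their depth, so the r values are a description.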

How the data were processed

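Single-cell RNA-seq was deposited for 1 IRI and 1 control library. Cell Ranger 3.0.0, Seurat 3.2 and the build mm9 are named per the submitters' processing notes. The main table holds whole numbers that behave as depth-corrected counts: the authors' deposited values are treated as a score, not as raw counts, although the analysis plan had assumed raw counts. A second deposited table holds Pearson residuals, also a score, for 3000 genes. Raw UMIs of 30 members were recovered from these residuals and taken only where at least 99.5% of values came out whole within 0.1. Annotation and cells were joined by the deposited cell names; no doublet caller was run.

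Levels were compared as log2 of (mean + 0.05), with a limit of 2-fold, at least 10 summed counts and 20 cells in each library. A gene with an IRI mean below 0.05 thus cannot be called higher. Shares have exact Clopper-Pearson intervals, rates exact Poisson intervals and ratios exact conditional intervals, all at 95%. A count of 0 is given a limit of 3 counts. PCR duplicates are removed by UMIs, but intervals cover counting error only. Those of rates, rate ratios and balances treat each UMI as independent, although the UMIs of some types lay in few cells. No p-value is given, since each group has 1 library. The 2-fold calls, the intervals and the UMI recovery were checked on simulated counts with known answers; groups were not tested. The members and the other lists were chosen with earlier results of these data known. Named genes are the members, and for other lists those past 2-fold. Scripts used Python 3.11.15, numpy 2.4.6, scipy 1.17.1, pandas 2.3.3 and matplotlib 3.10.9. Alternatives changed the added constant, the filter, the scaling, the number of members per cell, depth and the cells included.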

Additional observations from a re-analysis of the deposited data

Results flagged for a closer look

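Rate ratios of IRI over control were compared between cell types for the 30 members with recovered UMIs and for the mitotic and S phase sums. Of these, 9 had an interval above 1 in some type and below 1 in another. They were picked out of many intervals, so counting error alone could give some of them. The same measure was not taken for other genes, so there is no background share. The difference between types was not tested. Ccnb2 had a ratio of 0.221 in Ccr2+ Mac and 0.151 in T Cell, against 29.2 in Cx3cr1+ Mac. Ube2c had 0.429 in Ccr2+ Mac and 35.2 in PT-S3. Single control cells held 20 of the 41 mitotic UMIs in Ccr2+ Mac and 44 of the 50 in T Cell. Without the highest cell of each library the ratios of the mitotic sum there were 1.65 and 8.36. The Ccnb2 value in Cx3cr1+ Mac rests on 7 UMIs in 19 IRI cells and 1 UMI in control. Dut had 0.754 in PT-S1 and 4.77 in Resid. Mac. The other 6 were lower in IRI in Prolif. PT, whose control arm has 16 cells. Nusap1 had 0.453 there and 5.46 in tDL, and Pbk 0.385 there and 20.5 in PT-S3. The S phase sum had 0.631 there and 10.6 in Resid. Mac, Stmn1 0.576 and 6.77, and Tyms 0.366 and 10.4 in the same types. Tk1 had 0.575 there and 12.4 in tDL. The 2 values in tDL compare different clusters, since 420 of 440 IRI cells lie in cluster 9 and 391 of 427 control cells in cluster 11; in cluster 9 control has 0 UMIs of Nusap1 and of Tk1.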

How the results depend on the processing

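Of the alternatives tried on the main results in resident macrophages, PT S1-S3 and T cells, 95 stayed within the limits, 10 moved, 6 passed the 2-fold limit that the main value did not reach, and 1 changed direction. A ratio of shares stayed if it lay in the main interval, and a log2 sum if on the same side of 2-fold. For mitotic shares the main intervals were 5.82 to 184 in resident macrophages and 0.630 to 6.42 in T cells. Limits this wide are seldom left, so the 95 are a weak check. With 0.2 added, 3 members were called in resident macrophages and 0 in T cells, and with at least 30 summed counts 11 (of 12 passing) and 1, against 26 and 3; with no filter T cells had 5. With 0.01 added resident macrophages had 37 calls, and with the median shift of 0.156 taken out 19. The ratio of mitotic shares in PT S1-S3 (5.48) was 2.45 with 1 member and 20.4 with UMIs, and in T cells (1.82) 7.30 with UMIs and 3.04 with 3 members. The ratio of S phase shares in PT S1-S3 (1.51) was 4.14 with 3 members and turned to 0.909 with UMIs (78 of 3261 IRI cells, 127 of 4827 control cells); in T cells (1.55) it was 13.8 after thinning, 3.24 with UMIs and 3.04 with 3 members. The log2 mitotic sum in PT S1-S3 (0.917) was 1.33 with 0.01 added, 2.51 with UMIs and 2.54 without the top cell, and in T cells (0.579) 3.06 without the top cell. The log2 S phase sum in T cells (0.806) was 1.40 with UMIs and 1.22 without the top cell. The causes were not tested. In resident macrophages with more macrophage than tubule markers, 26 of 32 members were called. Leaving out shared barcodes, thinning, S phase UMI shares, UMI rates, leaving out the top cell and the choice of cells by markers came after seeing the data. Depth minimums of 1000 and 2000 UMIs gave no value in resident macrophages, where 19 and 8 control cells were left, nor did 3 members per cell, where 0 control cells had them. No paired analysis was possible because each group has 1 library.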

Other observations

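In the few cells annotated as red blood cells, Ube2c had 6 UMIs in 2 of 4 IRI cells and 27 UMIs in 10 of 35 control cells, 322 and 118 UMIs per 1000000 raw UMIs.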
